A study of Mus musculus with 4 samples.

Results

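The comparison described here is that of uninjured articular cartilage from adult mice with that of young mice, the age difference in sham-operated joints of an RNA sequencing study of cartilage injury. Its members are all genes of the deposited expression table with at least 1 FPKM (fragments per kilobase of transcript, relative to all mapped fragments) in the young sham or the adult sham library, which kept 12546 of 24532 genes. Both groups were wild-type C57BL/6 mice of the same strain, with a sham operation and no injury or drug. The methods name male mice for the injury surgery and do not give the sex of the sham animals. Young stands for 3 weeks of age. For the adult animals the methods give 10 weeks, whereas the labels state 12 weeks in the title and 14 weeks in the age field. The young sham sample was labelled day 3, and the adult sham sample days 3 to 14. Cartilage from 5 mice was pooled for an uninjured sample and from 10 mice for an injured sample, and each group gave 1 library of poly-A selected RNA. The other 2 of the 4 libraries, young injured and adult injured cartilage of day 3, were used as a second pair of pools of the same ages. Their labels refer to DMM, the cutting of a meniscal ligament, and the methods to a full-thickness cut into the cartilage. Some genes are described below by both adult libraries lying on the same side of both young ones. The share of all genes for which this holds was not calculated, so it only describes the genes named. With 1 library per group there was no replicate error, so no p-value was calculated and a difference here is one between 2 pools.

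Articular cartilage is built by chondrocytes, which surround themselves with fibrils of collagen types II, IX and XI and with aggrecan held by hyaluronan. In the weeks after birth the joint surface still grows, secondary ossification centres form in the epiphysis, and the tissue then settles into zones, with lubricating cells at the surface and calcified cartilage next to the bone. Fetal growth genes, many of them imprinted, are known to be switched down in many organs of the mouse over the same weeks.

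The samples were labelled as chondrocytes. The chondrocyte genes Col2a1, Acan, Sox9 and Comp were present in both sham libraries, with Sox9, the master regulator of chondrocyte identity, at 42.3 against 31.2 FPKM. Of values joined by "against" the young sham library comes first. Acan, which encodes aggrecan, was at 405 against 214 FPKM. Matn1 and Matn3, which encode the cartilage proteins matrilin-1 and matrilin-3, were below 3 FPKM in adult sham cartilage, and their values are given below. The female-specific RNA Xist was at or below 0.0254 FPKM and the Y-linked gene Eif2s3y between 14.0 and 24.2 FPKM in the 4 libraries. Genes of bone, blood, marrow and muscle were also present, and their values are given beside the results that they move with. In such bulk samples, fewer cells of a type and less RNA per cell cannot be told apart.

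Differences were calculated as the log2 ratio of FPKM + 1, adult over young, so that positive values are higher in the adult. The added 1 FPKM understates the difference of low genes. The median log2 ratio of all 12546 genes was −0.33. The summed FPKM of the 10 leading genes came to 26.5% of all FPKM in adult sham and 14.7% in young sham cartilage. Dividing each library by the median ratio of its genes to their mean over the libraries, called median-of-ratios scaling, brought the median to 0.03. A gene was therefore called only when it differed at least 2-fold in the same direction on both scales. By this rule 484 genes, or 3.86% of those tested, were higher in adult sham cartilage and 932 genes, or 7.43%, were lower. Of the 9 chondrocyte markers 6 were called lower and 1 higher, against these shares, with a median log2 ratio of −1.59. Without scaling the same threshold gave 484 higher (3.86%) and 1934 lower (15.4%) genes, and with scaling alone 1058 higher (8.43%) and 932 lower (7.43%) genes. The excess of lower genes therefore depended on the scale, and the text gives unscaled log2 ratios unless it says otherwise. Fragment counts were not analysed here. For genes with a single transcript, the product of FPKM and length fell on regular steps. If 1 step is 1 fragment, 1 FPKM of a gene of median length stood for 73.1 fragments in young and 85.6 fragments in adult sham cartilage, and this covers counting error only. The median ratio also fell with transcript length, from −0.21 in the shortest 20% to −0.54 in the longest 20% of the genes, against −0.17 and −0.12 between the injured libraries. With a trend of the ratio on length removed, none of the 272 genes that were called in a list or named by size or abundance reversed from past 2-fold, and 14 fell below 2-fold, among them C1qa, C1qc, H2-K1, H2-Ab1, Hmga1, Id3 and Tppp3.

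**Figure D1:**
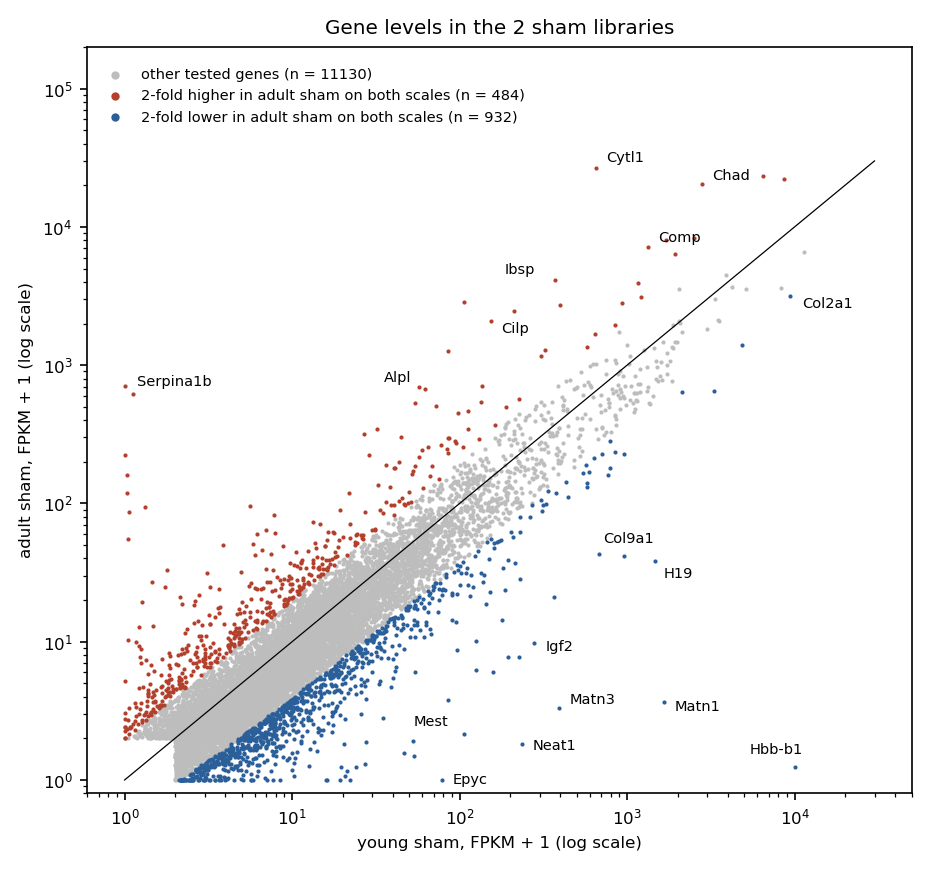
Each point is 1 of the tested genes, with its level in young sham (x axis) and adult sham cartilage (y axis) as FPKM + 1 on log axes, from 1 pooled library each, and the line marks equal levels. The 484 genes at least 2-fold higher in the adult on both scales are red and the 932 lower ones blue. Cytl1, Chad and Comp stand far above the line, and Matn1, Matn3, H19 and Igf2 far below it.

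The make-up of the most abundant messages differed between the ages. Cytl1 (chromosome 5, 37735519 to 37739820, positions are those of GRCm38.p6, which corresponds to mm10), which encodes a secreted cytokine-like protein of chondrocytes, was at 648 FPKM in the young against 26541 FPKM in the adult pool (log2 ratio 5.35). It was the most abundant gene of the adult library. Chad, which encodes the collagen-binding protein chondroadherin, was at 2781 FPKM in the young against 20538 FPKM in the adult pool (log2 ratio 2.88). The cysteine protease inhibitor Cst3 reached 23432 FPKM from 6486 FPKM, and the matrix-binding glycoprotein Sparc 22039 FPKM from 8634 FPKM. Of the 10 most abundant genes of the adult library 8 were called higher, against 3.86% of all genes, all but Mgp and Rplp1. They were picked by their adult level, which favours genes higher in the adult, so the count only describes them. Clec3a, a lectin-like gene of cartilage, was at 2512 against 8255 FPKM. Mfge8, which encodes a secreted protein that binds phosphatidylserine, was at 1708 against 8048 FPKM. The secreted protein gene 1500015O10Rik was at 1922 against 6416 FPKM. In young sham cartilage the top of the list was instead Mgp, with 11419.9 against 6601 FPKM in the young and the adult library, and the first 10 also held Col2a1 and the globin genes Hbb-b1, Hba-a2 and Hbb-b2. Mgp, which encodes the calcification inhibitor matrix Gla protein, had a log2 ratio of −0.79 and was not called. Eef1a1, Rplp1 and 3110079O15Rik, the gene of the chondrocyte membrane proteoglycan SNORC, were also among the 10 most abundant and were not called, with log2 ratios of −0.52, 0.20 and −0.19.

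The collagens of the cartilage fibril were lower in adult sham cartilage. All 7 members of the list had log2 ratios below 0 on both scales, 5 of them were called lower, against 7.43% of all genes, and the median was −1.59, or −1.16 after scaling. Col2a1, which encodes the main fibrillar collagen of cartilage, was at 9349 FPKM in the young against 3173 FPKM in the adult pool (log2 ratio −1.56). Col9a1 (chromosome 1, 24177589 to 24252738), whose product forms collagen IX on the fibril surface, fell furthest below the others. It was at 955 FPKM in young sham, 687 FPKM in young injured, 162 FPKM in adult injured and 40.9 FPKM in adult sham cartilage. Both young libraries were above both adult libraries. The partner chains did not move by the same amount, with log2 ratios of −1.79 for Col9a2 and −1.18 for Col9a3 against −4.51 for Col9a1, and Col9a3 was not called on the scaled values (−0.74). Of the collagen XI chains, Col11a1 was at 768 against 159 FPKM and Col11a2 at 569 against 188 FPKM. Col27a1, a minor fibrillar collagen of cartilage, had the ratio nearest to 0 (−0.51).

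Matrilins, adaptor proteins that link fibrils and proteoglycans, held the largest difference of the matrix genes. Matn1 (chromosome 4, 130944385 to 130955476) was at 1661 FPKM in young sham and 823 FPKM in young injured cartilage, against 2.65 FPKM in adult sham and 16.8 FPKM in adult injured cartilage. The log2 ratio of the sham libraries was −8.83. Matn3 (chromosome 12, 8947929 to 8972028) was at 392 and 356 FPKM in the young sham and young injured libraries and at 2.30 and 1.48 FPKM in the adult ones. The young and adult values of both genes lay far apart. Matn4 was also called lower, with 26.2 against 3.76 FPKM, and Matn2, which is expressed in many connective tissues, was not, with 9.99 against 13.9 FPKM. Lect1, Ucma and Epyc were lower as well. Lect1, the gene of the angiogenesis inhibitor chondromodulin, was at 2130.5 FPKM in the young against 634 FPKM in the adult pool (log2 ratio −1.75). Ucma, which encodes a Gla-rich protein of young chondrocytes, was at 573 FPKM in the young against 139 FPKM in the adult pool (log2 ratio −2.04). Epyc, which encodes the growth cartilage proteoglycan epiphycan, was at 77.6 FPKM in young sham cartilage and listed at 0 in adult sham cartilage.

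Of the 23 tested cartilage matrix glycoproteins, 6 were called higher and 7 lower, against 3.86% and 7.43% of all genes, and the list median changed its sign with the scale (−0.19 and, after scaling, 0.25). The higher members were Sparc, Cytl1, Chad, Comp, Cilp and Cilp2. Comp, which encodes cartilage oligomeric matrix protein, was at 1324 FPKM in the young against 7203 FPKM in the adult pool (log2 ratio 2.44). Cilp, which encodes cartilage intermediate layer protein, was at 152 FPKM in the young against 2093 FPKM in the adult pool (log2 ratio 3.77), and Cilp2 at 84.8 against 296 FPKM. In both injured libraries Cilp was lower than in the sham library of the same age, and it was again higher in the adult, with 74.9 FPKM in young injured and 795 FPKM in adult injured cartilage. The summed FPKM of the list was 37273 in young and 92624 in adult sham cartilage, where Cytl1, Chad, Sparc and Comp were the most abundant members. Between the injured libraries the sums were 40430 FPKM in young and 39522 FPKM in adult cartilage, so the higher sum was not seen there. The collagen list summed to 13132 and 4167 FPKM in the shams.

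Of 12 genes of aggrecan and its partners 1 was called higher and 3 lower, against 3.86% and 7.43% of all genes, with a median that was −0.14 without and 0.26 with scaling. Hapln1, whose link protein fastens aggrecan to hyaluronan, was lower in the adult, with 847 against 234 FPKM. Vcan, which encodes the larger proteoglycan versican of immature matrix, was at 22.7 against 3.77 FPKM. Acan had a log2 ratio of −0.92 and was not called. Cemip, a hyaluronan-degrading gene, was the member called higher, with 14.9 against 38.0 FPKM. Hmmr, counted in this list as a hyaluronan receptor gene and known as a mitotic gene, was the third member called lower.

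Among the 13 tested small leucine-rich proteoglycans, which bind collagen fibrils, Omd, Prelp and Aspn were called higher and Epyc and Podn lower, against 3.86% and 7.43% of all genes. Prelp, a basement membrane and cartilage anchor protein gene, was at 111 FPKM in the young against 462 FPKM in the adult pool (log2 ratio 2.05). Omd, which encodes osteomodulin, was at 572 against 1348 FPKM. The abundant members Bgn, Fmod and Dcn were not called, with log2 ratios of −0.70, −0.59 and 0.48. The list median was 0.12, and it was below 0 when all genes above 0 FPKM were counted.

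Of 19 tested genes known for the superficial zone, the lubricating surface layer, 7 were called higher in adult sham cartilage, 2 lower and 10 neither, against 3.86% and 7.43% of all genes. The list median was 0.80. Prg4, which encodes the boundary lubricant lubricin, was at 2049 FPKM in young sham and 3565 FPKM in adult sham tissue, a log2 ratio of 0.80 that was called after scaling (1.24) but not before. Clu, which encodes the chaperone clusterin, was at 1208 FPKM in the young against 3116 FPKM in the adult pool (log2 ratio 1.37). Thbs4, a thrombospondin gene of tendon and cartilage, was at 55.9 FPKM in the young against 696 FPKM in the adult pool (log2 ratio 3.61). Crip1, Tppp3, Tnc, Mfap5 and Sfrp4 were the other members called higher. Gdf5, the growth factor gene of the joint interzone, was lower, with 15.2 against 3.41 FPKM, as was the transcription factor gene Foxo3, with 8.52 against 2.54 FPKM. Thbs4 and Cilp also belong to the tendon and ligament list. Of its 8 tested members 4 were called higher and 1 lower, against 3.86% and 7.43% of all genes. The list summed to 435 FPKM in young sham and 3073 FPKM in adult sham tissue. Without Thbs4 and Cilp the sums were 227 and 284 FPKM. Tnmd, which encodes the tendon protein tenomodulin, was the member called lower, with 2.04 against 0.0490 FPKM, and Scx, a transcription factor gene of tendon, at 2.97 against 5.18 FPKM. The part of tendon or ligament tissue in these values was not tested.

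**Figure D2:**
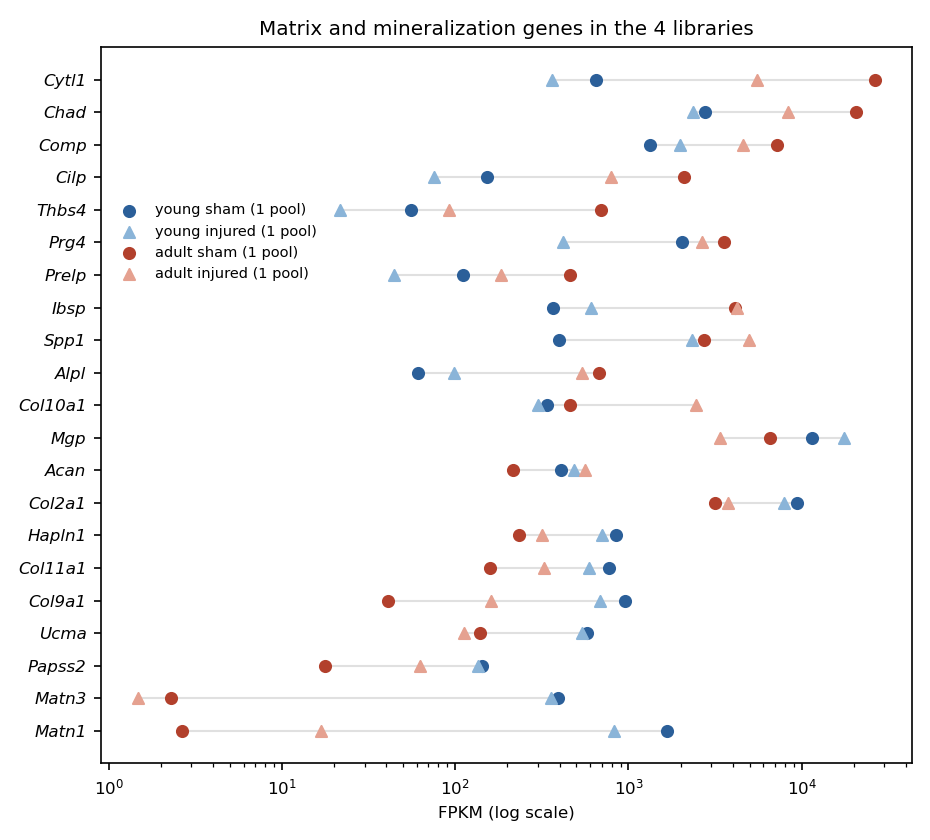
FPKM (log axis) of matrix and mineralization genes in the 4 libraries, 1 pool each, with circles for sham and triangles for injured cartilage, blue for young and red for adult mice. For Cytl1, Chad, Comp, Cilp, Ibsp and Alpl both adult libraries lie above both young ones, and for Col2a1, Col9a1, Matn3 and Matn1 both lie below.

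In the list of 24 hypertrophic and mineralizing genes, 6 were called higher in the adult and 1 lower, against 3.86% and 7.43% of all genes. The list median was 0.11, with 12 members above 0 and 12 below, where the median of all genes was −0.33. After scaling the list median was 0.53, with 16 members above 0 and 8 below. Between the injured libraries it was 0.82 without scaling, with 20 members above 0 and 4 below. Ibsp, which encodes bone sialoprotein, was at 369 FPKM in the young against 4136 FPKM in the adult pool (log2 ratio 3.48). Alpl, the gene of the alkaline phosphatase that supplies phosphate to mineral, was at 61.3 FPKM in the young against 676 FPKM in the adult pool (log2 ratio 3.44). The phosphate transporter gene Slc20a1 was at 84.0 against 229 FPKM, and Ank, whose product exports the mineral inhibitor pyrophosphate or its source ATP, was at 59.1 against 127 FPKM. Ihh, the hedgehog ligand gene of prehypertrophic chondrocytes, was at 2.59 against 16.6 FPKM. The gene most often used to mark hypertrophic chondrocytes, Col10a1, was not called between the shams (338 against 459 FPKM, log2 ratio 0.44), and Runx2, Sp7, Mmp13 and Pth1r were not called either. In adult injured cartilage Col10a1 was at 2446 FPKM, against 302 FPKM in young injured cartilage. Foxa2, a transcription factor gene of hypertrophic chondrocytes, was the member called lower, with 13.9 against 3.00 FPKM, and was higher in adult than in young injured cartilage (6.78 and 15.5 FPKM).

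Ibsp belongs with Dmp1, Mepe and Spp1 to a cluster of genes on chromosome 5 that encode acidic phosphoproteins of bone and dentin. The group was set apart here after its values were seen. On GRCm38.p6, Dmp1 lies at chromosome 5, 104197575 to 104214102, Ibsp at chromosome 5, 104299287 to 104311472, Mepe at chromosome 5, 104325329 to 104338611 and Spp1 at chromosome 5, 104435111 to 104441053. All 4 were called higher in the adult, against 3.86% of all genes, which only describes a group picked for its values. Spp1, which encodes osteopontin, was at 397 FPKM in the young against 2722 FPKM in the adult pool (log2 ratio 2.78). The osteocyte gene Mepe was at 6.87 against 60.6 FPKM, and Dmp1, another osteocyte gene, at 12.4 against 37.7 FPKM. Dspp, the dentin gene of the same cluster, was not among the tested genes.

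Of 18 genes of osteoblasts and osteocytes, the cells that build and maintain bone, 9 were called higher, Ibsp and Alpl included, and 1 lower, against 3.86% and 7.43% of all genes. The list summed to 1745 FPKM in young sham and 6695 FPKM in adult sham tissue, and without Ibsp and Alpl to 1315 and 1882 FPKM. No member was at 0 in either library. Sost (chromosome 11, 101962458 to 101967015), which encodes the Wnt inhibitor sclerostin of osteocytes, was at 0.459 FPKM in young sham, 0.0915 FPKM in young injured, 26.0 FPKM in adult sham and 8.67 FPKM in adult injured cartilage. Both adult libraries were well above both young ones. The osteocalcin genes Bglap, Bglap2 and Bglap3, of which Bglap and Bglap2 share over 50% of their sequence words with other genes, had log2 ratios of 2.20, 2.01 and 2.15. Ifitm5, an early osteoblast gene, was at 5.62 against 15.5 FPKM, and Kazald1, a secreted protein gene of developing bone, was the member called lower, with 95.0 against 34.6 FPKM. The collagen I genes Col1a1 and Col1a2 did not follow, with log2 ratios of 0.14 and −0.33. Ibsp, Alpl, Sp7 and Smpd3 stand in both the mineralization and the bone list, and the part of bone cells in the higher mineralization genes was not tested. None of the 11 tested genes of osteoclasts, which resorb bone, was called, with a median of 0.20 and Ctsk at 87.4 against 136 FPKM.

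Of 24 tested growth plate signalling genes, Ihh, Npr2 and Fgf1 were called higher and none lower, against 3.86% and 7.43% of all genes. Npr2, the receptor gene for C-type natriuretic peptide, was at 51.2 against 161 FPKM. The growth plate receptor gene Fgfr3 was at 129 against 133 FPKM, and Pthlh, the gene of the parathyroid hormone-related protein that holds chondrocytes in proliferation, at 8.69 against 3.92 FPKM. The hedgehog target genes Gli1 and Ptch1 had log2 ratios of 0.52 and −0.13. Among 23 chondrogenic transcription factors, 1 was called higher, Epas1 with 11.5 against 29.9 FPKM, and 2 lower, shares near those of all genes. Sox5 and Sox6, the partner genes of Sox9, were at 12.3 against 5.18 FPKM and at 14.0 against 6.23 FPKM, log2 ratios of −1.10 and −1.05 that did not reach 2-fold after scaling. The nuclear factor gene Nfia was one of those called lower, with 3.68 against 0.739 FPKM, and the Wnt effector gene Lef1 the other, with 1.68 against 0.155 FPKM.

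The TGF-beta and BMP list, 37 ligands, receptors, inhibitors and targets, had 8 members called higher, against 3.86% of all genes, and 3 lower, a share near the 7.43% of all genes, with a median of 0.10. The BMP antagonists Grem1 and Chrdl2 were higher in the adult. Grem1 had a log2 ratio of 3.12, from 4.86 FPKM in the young library, and Chrdl2 was at 7.77 FPKM in the young against 47.9 FPKM in the adult pool (log2 ratio 2.48). Gdf10, a ligand gene, was at 16.5 against 61.4 FPKM, and Tgfbr3, which encodes the co-receptor betaglycan, at 14.8 against 48.4 FPKM. Bambi, which encodes a decoy receptor, was at 23.6 against 50.9 FPKM, and Id3, a target gene of BMP signalling, was also called higher. The lower members were Gdf5, the latent TGF-beta binding protein gene Ltbp1 and the follistatin-like gene Fstl1 (log2 ratio −1.69). Ltbp2 and Ltbp3, of the same family as Ltbp1, were higher. The ligand genes Tgfb1, Tgfb3, Bmp2 and Bmp4 were not called.

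Of 29 tested Wnt genes, 6 were called higher and 4 lower, against 3.86% and 7.43% of all genes. The secreted inhibitors did not move together. Sost, Dkk1 and Sfrp4 were higher and Sfrp1 and Sfrp2 lower in adult sham cartilage. Dkk1 was at 2.24 FPKM in the young against 24.1 FPKM in the adult pool (log2 ratio 2.95), and Sfrp1 at 11.6 FPKM in the young against 0.259 FPKM in the adult pool (log2 ratio −3.33). Both adult libraries had more Dkk1 than both young ones, with 1.33 FPKM in young injured and 21.4 FPKM in adult injured cartilage. Rspo3, which encodes an activator of Wnt signalling, was at 8.53 against 0.439 FPKM, whereas its relative Rspo2 was at 0.255 against 2.61 FPKM. The inhibitor gene Wif1 was the most abundant member, with 653 against 1026 FPKM, and was not called, like Frzb. Wnt5b, a ligand gene of growth cartilage, was at 2.28 against 5.96 FPKM, and the R-spondin receptor gene Lgr6 at 8.61 against 28.7 FPKM.

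Imprinted and fetal growth genes were lower as a group, with a median of −2.06 (−1.80 after scaling), the lowest of all lists. Of 21 tested members 14 were called lower and 1 higher, against 7.43% and 3.86% of all genes. H19, the noncoding RNA next to Igf2, was at 1474 FPKM in young sham, 1349 FPKM in young injured, 116 FPKM in adult injured and 37.3 FPKM in adult sham cartilage. Igf2, which encodes the fetal growth factor, was at 275, 166, 12.5 and 8.80 FPKM in these libraries. For both genes both young values were above both adult ones, and the share of all genes with such an order was not calculated. H19 (chromosome 7, 142575530 to 142578146) and Igf2 (chromosome 7, 142650768 to 142666816) are neighbours on GRCm38.p6 and are expressed from opposite parental copies.

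Maternally and paternally expressed genes were both lower. The growth genes Plagl1 and Mest, expressed from the paternal copy, had log2 ratios of −4.63 and −5.63, with Mest at 105 against 1.14 FPKM. Peg3 and its neighbour Zim1 were at 179 against 13.5 FPKM and at 52.2 against 0.483 FPKM. Dlk1, a Notch-like gene of immature cells, was at 26.5 against 0.870 FPKM. Gpc3, a growth-restraining membrane proteoglycan gene that is not imprinted, was at 12.5 against 0.894 FPKM, and the amino acid transporter gene Slc38a4 at 8.31 against 1.52 FPKM. Of the maternally expressed growth inhibitors, Cdkn1c was at 185 against 22.8 FPKM and Grb10 at 114 against 20.4 FPKM. The noncoding RNAs Meg3, Rian and Mirg of the Dlk1 region had log2 ratios of −1.23, −1.59 and −0.83, and of these Rian was called. Ndn and Sox4 were not called, and Hmga1, over 50% of whose sequence words occur in other genes, was the member called higher, with 1.22 against 3.69 FPKM.

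Of 17 tested genes of the IGF axis, which carries the growth hormone signal, 6 were called lower and 1 higher, against 7.43% and 3.86% of all genes, with a median of −0.81. Besides Igf2, Igf1 was at 6.95 against 0.303 FPKM, the growth hormone receptor gene Ghr at 77.9 against 20.7 FPKM and the adaptor gene Irs1 at 17.7 against 5.20 FPKM. Igfals, the gene of the acid-labile subunit that carries IGF, was at 5.24 against 0.169 FPKM, and Socs2, a target and inhibitor gene of growth hormone signalling, at 9.49 against 2.74 FPKM. Between the injured libraries Socs2 had the opposite sign (log2 ratio 0.65). The receptor gene Igf1r was at 5.57 against 3.52 FPKM and was not called. Among the binding proteins Igfbp6 was higher, with 5.01 against 23.4 FPKM, and Igfbp7 was nearly equal, with 1264 against 1279 FPKM.

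**Figure D3:**
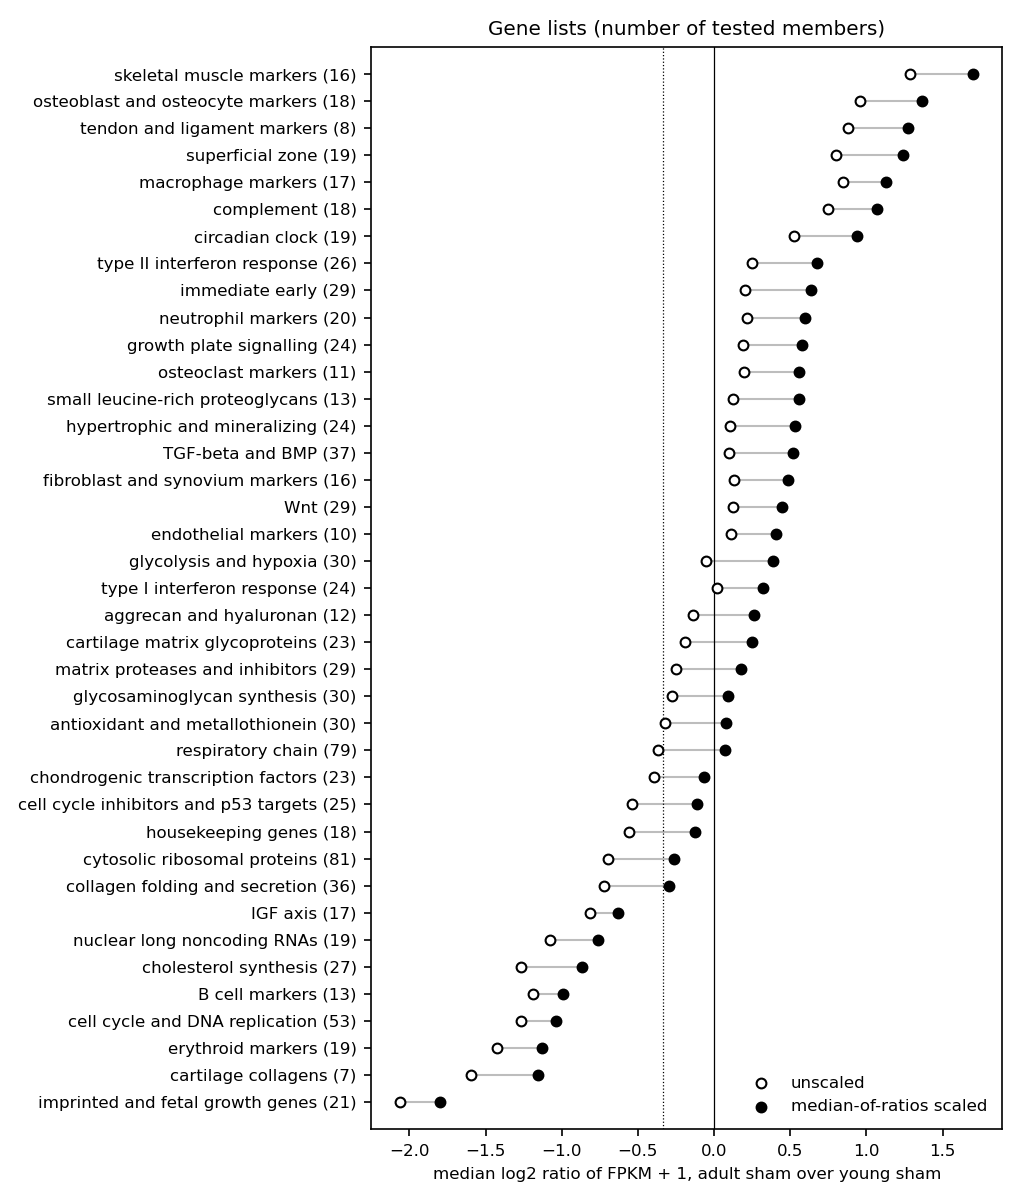
Median log2 ratio of FPKM + 1, adult over young sham (x axis), of gene lists, with the number of tested members in brackets, without scaling (open circles) and after median-of-ratios scaling (filled circles). The dotted line is the median of all tested genes without scaling. Among the lists shown, imprinted genes and cartilage collagens have the lowest medians and skeletal muscle and bone genes the highest, on both scales.

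Cell cycle genes were lower in adult sham cartilage. None of the 53 members was called higher and 28 were called lower, against 7.43% of all genes, with a median of −1.27 (−1.04 after scaling). Mitotic genes had the largest differences. Mki67, the usual marker of cycling cells, was at 13.3 FPKM in young sham, 19.7 FPKM in young injured, 1.38 FPKM in adult sham and 4.97 FPKM in adult injured cartilage. Top2a, which untangles chromosomes, was at 18.3, 36.0, 2.69 and 8.89 FPKM in these libraries. Each adult library was below each young one for both genes. The mitotic kinase gene Cdk1 and the ubiquitin-conjugating gene Ube2c had log2 ratios of −2.40 and −2.40. Genes of DNA replication did not move together, with Pcna at 75.4 against 48.9 FPKM (log2 ratio −0.62) and Mcm6 at 20.1 against 32.3 FPKM (0.66), in contrast to Mcm2 (−1.43). The cyclin D genes, which act at entry into the cycle, were not called, and Ccnd1 was at 3.07 against 6.01 FPKM. The genes are shared by all dividing cells, and the values do not tell which cells they came from. Erythroid and B cell genes, which mark dividing marrow cells, were lower as well and are given below, and their part in the lower cell cycle genes was not tested.

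Promoters of mitotic genes are known to carry CCAAT boxes, bound by the factor NF-Y, and the cell cycle homology region (CHR), bound by the DREAM and MuvB complexes. Windows of 300 bases, from 250 before to 50 after the start of the gene, were read from the RefSeq table of GRCm38.p6 for 42 of the 53 genes. The CHR letters TTTGAA or TTCGAA on either strand were in 20 of them (47.6%), against 19.4% of 27025 windows, 1 per gene. Among the 23 genes called lower that had a window, 15 held it. CCAAT on either strand was in 32 of the 42 windows (76.2%), against 37.9% of all. These are matches of letters and not measured binding. The windows of Ube2c and Cks2, the 2 called genes of the list with the highest mean level that had a window, are shown because these are the most abundant of the mitotic genes that were lower, with CHR and CCAAT matches on either strand in capitals. Ube2c is on the plus strand at chr2:164769679-164769978 and holds 6 CCAAT matches, 2 of which overlap each other, and 1 CHR match. Cks2, also on the plus strand, at chr13:51644982-51645281, holds 4 CCAAT matches and no CHR match. Both sequences are written 5′ to 3′.
Ube2c: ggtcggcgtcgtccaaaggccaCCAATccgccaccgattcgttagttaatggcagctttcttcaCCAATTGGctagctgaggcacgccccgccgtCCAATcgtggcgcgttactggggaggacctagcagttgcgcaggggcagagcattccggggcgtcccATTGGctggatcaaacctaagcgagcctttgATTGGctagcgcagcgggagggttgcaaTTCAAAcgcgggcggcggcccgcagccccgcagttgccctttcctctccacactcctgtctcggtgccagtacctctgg
Cks2: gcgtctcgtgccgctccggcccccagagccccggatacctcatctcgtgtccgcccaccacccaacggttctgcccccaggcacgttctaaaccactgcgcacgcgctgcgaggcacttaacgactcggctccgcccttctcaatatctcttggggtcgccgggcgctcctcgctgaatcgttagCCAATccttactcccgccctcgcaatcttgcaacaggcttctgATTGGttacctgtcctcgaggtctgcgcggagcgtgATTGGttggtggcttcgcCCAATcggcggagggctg

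Of 25 inhibitors of the cycle and p53 targets, 2 were called higher and 4 lower, against 3.86% and 7.43% of all genes. Cdkn2a, which encodes the senescence-associated inhibitors p16 and p19ARF, was at 0.385 FPKM in young sham and 0.703 FPKM in young injured cartilage, against 4.82 FPKM in adult sham and 2.01 FPKM in adult injured cartilage. Both adult values were above both young ones, at low levels. Cdkn1b, the gene of p27, was lower, with 13.7 against 3.68 FPKM, as was Cdkn1c. Cdkn1a, the gene of p21, was at 19.4 against 8.03 FPKM and did not reach 2-fold after scaling. Mdm4, the gene of a p53 inhibitor, had 26.7 FPKM in young sham cartilage and from 2.39 to 3.02 FPKM elsewhere, so that its difference rests on the young sham library.

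Of 27 tested cholesterol synthesis genes 9 were called lower in adult sham cartilage, against 7.43% of all genes, 18 were not called and none was higher, with a median of −1.27 (−0.87 after scaling). Hmgcs1, an early enzyme gene of the pathway, was at 54.8 FPKM in the young against 12.8 FPKM in the adult pool (log2 ratio −2.02). Idi1, an isomerase gene of the pathway, was at 21.1 against 3.53 FPKM and Fdps, which makes farnesyl diphosphate, at 101 against 30.2 FPKM. Sqle, the gene of squalene epoxidase, was at 32.9 against 10.5 FPKM, and Scd1, a fatty acid desaturase gene that shares the same regulators, at 34.5 against 7.60 FPKM. The pathway's regulator gene Srebf2 was at 22.1 against 22.9 FPKM and was not called. Between the injured libraries the median of the same list was −0.12, and Hmgcs1 was at 28.3 FPKM in the young and 25.8 FPKM in the adult one. Both of these lay between the young sham and the adult sham value.

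Genes of this pathway are known targets of SREBP2, which binds sterol regulatory elements, often beside CCAAT boxes. RefSeq windows were found for 19 of the 29 genes. The element TCACNCCAC on either strand was in 1 of them, that of Hmgcs1, and in 1.22% of all windows. CCAAT on either strand was in 16 (84.2%), against 37.9% of all. The Hmgcs1 window, on the plus strand at chr13:119690101-119690400, is printed for its 4 CCAAT matches and 1 element. That of Msmo1, on the minus strand at chr8:64733529-64733828, is printed beside it for its 3 CCAAT matches and no element. Matches on either strand are in capitals, and the sequences run 5′ to 3′ along the strand of the gene.
Hmgcs1: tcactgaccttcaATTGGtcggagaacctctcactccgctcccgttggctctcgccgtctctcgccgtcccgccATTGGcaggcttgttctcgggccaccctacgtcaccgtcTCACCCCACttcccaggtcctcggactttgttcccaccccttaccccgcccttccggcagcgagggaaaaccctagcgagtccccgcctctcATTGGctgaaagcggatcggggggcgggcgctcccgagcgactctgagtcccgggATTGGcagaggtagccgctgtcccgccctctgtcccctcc
Msmo1: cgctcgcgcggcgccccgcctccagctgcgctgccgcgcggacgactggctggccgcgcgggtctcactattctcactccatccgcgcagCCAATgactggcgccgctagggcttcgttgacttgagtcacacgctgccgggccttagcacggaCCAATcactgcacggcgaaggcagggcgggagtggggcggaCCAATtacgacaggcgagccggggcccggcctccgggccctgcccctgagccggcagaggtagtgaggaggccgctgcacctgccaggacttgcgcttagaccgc

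Of 30 genes of glycosaminoglycan synthesis 3 were called lower and 1 higher, near the 7.43% and 3.86% of all genes, and the median was −0.28, or 0.09 after scaling. Papss2, which makes the active sulfate donor in cartilage and is also counted in the glycoprotein list, was at 143 FPKM in the young against 17.6 FPKM in the adult pool (log2 ratio −2.95), and the sulfate transporter gene Slc26a2 at 17.7 FPKM in the young against 3.44 FPKM in the adult pool (log2 ratio −2.07). Impad1, which clears a by-product of sulfation, was the third member called lower. Csgalnact2, which starts chondroitin chains, was the member called higher, with 39.7 against 81.8 FPKM. The chondroitin sulfotransferase genes Chst11 and Chst3 had log2 ratios of −0.11 and −0.18.

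The 36 genes that fold and export collagen had a median of −0.73 without scaling and −0.30 after it. On both scales 1 was called lower and 1 higher, against 7.43% and 3.86% of all genes. The lower one was Sec23a, a coat gene of the vesicles that leave the endoplasmic reticulum, with 74.3 against 23.1 FPKM. The chaperone genes Hspa5 and Pdia4 had log2 ratios of −1.22 and −1.27, and −0.78 and −0.84 after scaling. The collagen chaperone gene Serpinh1 was at 946 against 839 FPKM. Lox, whose enzyme crosslinks collagen, was called higher, with 8.98 against 19.8 FPKM.

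Of 81 cytosolic ribosomal protein genes 6 were called lower, a share near the 7.43% of all genes, and none higher, with a median of −0.70 (−0.26 after scaling). The lower genes were Rpl35, Rps25, Rps7, Rpl24, Rpl29 and Rps20, and Rpl29 was at 572 against 130.2 FPKM. Cox7c of the respiratory chain was at 201 against 61.3 FPKM. This chain, 79 genes, had 2 called higher and 3 lower, against 3.86% and 7.43% of all genes, and a median of −0.37 that was 0.07 after scaling. Glycolysis and hypoxia genes had 3 members called higher and 2 lower of 30, against the same shares, and a median of −0.05 that was 0.38 after scaling. The carbonic anhydrase genes Car9 and Car12 were the lower ones, Adm, the adrenomedullin gene, was among the higher ones, with 0.374 against 1.92 FPKM, and Gapdh was at 608 against 694 FPKM. None of the 18 housekeeping genes was called, with a median of −0.56, or −0.12 after scaling.

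Of 30 antioxidant genes 8 were called higher, against 3.86% of all genes, and 2 lower, a share near the 7.43% of all genes, with a list median of −0.32 without and 0.08 with scaling. Sod3, which encodes the extracellular superoxide dismutase of cartilage matrix, was at 25.9 FPKM in the young against 315 FPKM in the adult pool (log2 ratio 3.55). The glutathione peroxidase genes Gpx1 and Gpx3 had log2 ratios of 2.76 and 2.95, whereas the endoplasmic reticulum form Gpx8 was lower, with 206 against 56.3 FPKM. Both adult libraries were above both young ones for Sod3, Gpx1 and Gpx3. The metallothionein genes Mt1 and Mt2 were at 13.5 against 33.8 FPKM and at 4.32 against 12.5 FPKM. Txnip, which encodes an inhibitor of thioredoxin, was at 67.4 against 186 FPKM.

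Of 29 matrix proteases and inhibitors 6 were called higher and 3 lower, against 3.86% and 7.43% of all genes, and the median changed from −0.25 to 0.17 with scaling. Mmp3, the gene of stromelysin-1, was at 4.99 against 41.2 FPKM between the shams, with 152 FPKM in young injured and 673 FPKM in adult injured ones. Htra1, a serine protease gene, was at 92.5 FPKM in the young against 284 FPKM in the adult pool (log2 ratio 1.61). The aggrecanase gene Adamts5 was at 0.896 against 4.35 FPKM. Adamts3, the procollagen II peptidase gene, was lower, with 11.8 FPKM in the young against 0.666 FPKM in the adult pool (log2 ratio −2.95), and so were Mmp16 and Adamtsl3. The inhibitor genes Timp2 and Timp3 had log2 ratios of 0.88 and 0.77 and were not called. Timp4, a further inhibitor gene, was called higher, with 0.850 against 5.77 FPKM, but was at 1.38 FPKM in young injured and 0.759 FPKM in adult injured cartilage.

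Of 19 clock genes 5 were called higher in adult sham cartilage and none lower, against 3.86% and 7.43% of all genes. Dbp, an output gene of the clock, was at 35.2 FPKM in the young against 188 FPKM in the adult pool (log2 ratio 2.39), and the repressor gene Nr1d1 at 37.6 FPKM in the young against 131 FPKM in the adult pool (log2 ratio 1.77). Per2, Ciart and Hlf were the other members called higher. The activator genes Arntl and Clock were at 9.58 against 6.40 FPKM and at 3.91 against 2.09 FPKM. The hour at which the tissue was taken was not given in the sources used here. Of the 29 immediate early genes, 5 were called higher and 1 lower, against the same shares. Ctgf, which encodes a matricellular growth factor of cartilage, was at 1156 FPKM in the young against 3904 FPKM in the adult pool (log2 ratio 1.76), the phosphatase gene Dusp1 was at 39.8 against 180.4 FPKM and Fos at 21.3 against 23.5 FPKM. The zinc finger gene Egr1, which is also counted with the tendon genes, was at 15.7 against 35.4 FPKM.

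Interferon signalling was the subject of the study. The receptor gene Ifngr1 was at 24.2 against 23.9 FPKM and Ifngr2 at 14.4 against 7.30 FPKM, a log2 ratio of −0.89 for the second, and Ifng itself was listed at 0 in both. By quantitative PCR on other uninjured animals, the study reported higher RNA levels of Ifngr1 and Ifng in the adult. Between the sham libraries Ifngr1 was nearly equal, and Ifng could not be compared. Among 24 type I response genes 2 were called higher and 1 lower, against 3.86% and 7.43% of all genes, with a median of 0.02 that was below 0 under 3 alternatives. The higher ones were Ifit3 and Ifit3b, near copies of each other whose values are uncertain, and the lower one was Rsad2, with 6.81 against 1.15 FPKM. Of 26 type II response genes 3 were called higher, the antigen presentation genes H2-D1, H2-K1 and H2-Ab1, and none lower, against the same shares, with a median of 0.25 that was below 0 when all genes above 0 FPKM were counted. H2-D1 was at 53.1 against 186 FPKM. In the complement list Clu, C4b and the 3 C1q genes C1qa, C1qb and C1qc were called higher, 5 of 18 against 3.86% of all genes, and none lower. The C1q genes are macrophage genes, and of 17 tested macrophage genes 7 were called higher, against 3.86% of all genes, and none lower, with summed levels of 222 and 366 FPKM. The part of macrophages in the C1q and antigen presentation values was not tested.

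Of 19 tested RNAs listed as nuclear-retained or as hosts of small nucleolar RNAs, 7 were called lower, against 7.43% of all genes, 12 were not called and none was higher, with a median of −1.08 between the shams and −0.29 between the injured libraries. H19 and Rian belong to this list and to the imprinted one. Neat1 (chromosome 19, 5824708 to 5845480), the scaffold RNA of paraspeckles, was at 234 FPKM in young sham, 257 FPKM in young injured and 518 FPKM in adult injured cartilage but at 0.828 FPKM in adult sham cartilage. Its difference therefore rests on the adult sham library. Malat1, another abundant nuclear RNA, was at 264 FPKM in young sham, 202 FPKM in young injured, 208 FPKM in adult injured and 78.6 FPKM in adult sham cartilage, again with the adult sham library below the rest. The same held for Snhg3, a host RNA of small nucleolar RNAs, with 4.62 FPKM in adult sham and 16.3 to 20.1 FPKM in the other libraries, and for Rmrp, with 0.678 FPKM and 2.77 to 5.67 FPKM. Of 21 tested replication-dependent histone genes none was called, and these messages mostly lack the poly-A tail that the libraries select.

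Erythroid and B cell genes mark cells of the marrow. Of 19 erythroid genes 10 were called lower in adult sham cartilage, against 7.43% of all genes, among them Alas2, the first heme synthesis gene of red cells, with 133 against 30.5 FPKM, and the membrane gene Slc4a1, with 40.6 against 5.59 FPKM. The 1 called higher was Hbb-bs, a globin copy that is treated below, and the list summed to 9758 FPKM in young sham and 6977 FPKM in adult sham tissue. This sum leaves out the beta-globin genes Hbb-b1, with 10051 against 0.244 FPKM, and Hbb-b2, with 4836 against 1407 FPKM. The sums of the whole globin families are given below. Of 13 B cell genes 6 were called lower, against the same 7.43%, and Cd79a was at 16.9 against 3.30 FPKM. Of 20 neutrophil genes 1 was called higher, near the 3.86% of all genes, and none lower, and S100a9 was at 500.2 against 696 FPKM. The higher gene was Elane, the elastase gene of neutrophil precursors, with 15.6 against 38.0 FPKM. No T or NK cell gene reached 1 FPKM in either sham library.

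Of 16 skeletal muscle genes 9 were called higher in adult sham cartilage, against 3.86% of all genes, and none lower, with sums of 1097 and 2101 FPKM. Ckm, the muscle creatine kinase gene, had a log2 ratio of 2.43 after scaling, but between the injured libraries the median of the list was −0.06. Among fibroblast and synovium genes 1 of 16 was called lower, near the 7.43% of all genes, and none higher. The lower gene was Col14a1, with 25.6 against 6.03 FPKM. The muscle actin gene Acta1 reached 499.7 FPKM in the adult sham library and 98.0 to 189 FPKM in the rest. Of 10 endothelial genes none was called. Of 8 adipocyte genes 1 was called lower and none higher, against 7.43% and 3.86% of all genes. Of 5 neural and Schwann cell genes none was called. In the skin list the epidermal gene Sbsn was at 4.61 FPKM in the young against 95.6 FPKM in the adult pool (log2 ratio 4.11), while the keratin genes Krt5 and Krt14, which define basal epidermis, were at 0 in all libraries. The part of these cell types in the differences of other genes was not tested.

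**Figure D4:**
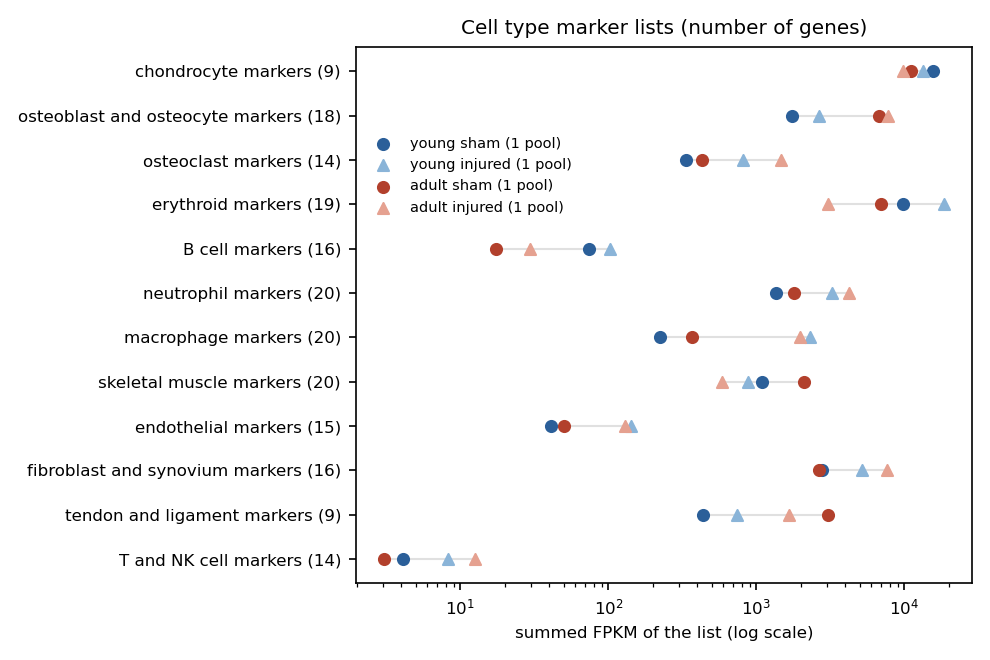
Summed FPKM (log axis) of each cell type marker list, with its number of genes in the table, in the 4 libraries of 1 pool each, with circles for sham and triangles for injured cartilage, blue for young and red for adult mice. Between the sham libraries the bone, tendon and muscle sums were higher and the B cell and erythroid sums lower in the adult. The erythroid list leaves out the beta-globin genes Hbb-b1 and Hbb-b2.

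Several of the largest ratios belonged to genes with near-identical copies, between which fragments can be split. The alpha-1 antitrypsin genes Serpina1a to Serpina1e, serine protease inhibitors best known from the liver, summed to 0.488 FPKM in young sham and 0.270 FPKM in young injured cartilage, against 1758 and 351 FPKM in adult sham and adult injured cartilage. The family as a whole was thus near 0 in both young libraries and abundant in both adult ones. Serpina1b (chromosome 12, 103728156 to 103738189) made up the largest part, with 700.2 FPKM in adult sham cartilage, and was listed at 0 in young sham. Of 9 other liver genes, chosen after these values were seen, Alb, Ttr, Fgb and Mup3 were at 0 in all 4 libraries, and the list summed to 2.24 FPKM in adult sham cartilage.

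In the beta-globin family single genes moved in opposite directions. Hbb-b1 was at 10051 FPKM in young sham and 0.244 FPKM in adult sham tissue, while Hbb-bs was at 106 against 2868 FPKM. The sum of the 4 genes was 15006 and 4282 FPKM, a log2 ratio of −1.81, and that of the 2 alpha-globin genes was 9365 and 4042 FPKM (−1.21). Both sums were lower in the adult. After scaling the log2 ratio was −1.37 for the beta-globin sum and −0.77 for the alpha-globin sum, which thus missed 2-fold on that scale. The pseudogene Atp6v0c-ps2 was at 0.0364 against 159 FPKM, and its sum with the proton pump gene Atp6v0c was 229 and 187 FPKM. Eno1b was at 0.0432 against 54.1 FPKM, and its sum with the glycolysis gene Eno1 was 861 and 707 FPKM. Neither sum differed 2-fold. The ratios of these single copies, and that of the microRNA gene Mir8114 (0.0679 against 86.4 FPKM), are uncertain.

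Of the 20 genes with the largest ratios in each direction, those not yet described encode proteins of several kinds. Higher in adult sham cartilage were Cntfr, a receptor gene for ciliary neurotrophic factor, with 0.788 FPKM in the young against 31.9 FPKM in the adult pool (log2 ratio 4.20), and the actin-severing gene Gsn, with 210.1 FPKM in the young against 2458 FPKM in the adult pool (log2 ratio 3.54). The calcium-binding protein gene S100a6 was at 84.7 FPKM in the young against 1267 FPKM in the adult pool (log2 ratio 3.89). Lower in the adult were the secreted protein genes Fam180a and Srpx, with log2 ratios of −4.86 and −4.72, and the protease inhibitor gene A2m, with −4.80. The fibulin gene Efemp1 was at 84.7 against 2.80 FPKM and Cthrc1, which encodes a secreted protein of growing cartilage and wounds, at 124 against 5.26 FPKM. Il17b, a cytokine gene, was at 45.5 against 0.562 FPKM. The calmodulin-binding gene Pcp4 was at 21.0 FPKM in young sham and listed at 0 in adult sham cartilage, and the G protein gene Gng13 and the uncharacterized gene Gm525 had log2 ratios of −4.29 and −4.37.

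The injured libraries gave a second comparison of adult with young cartilage that shares no library with the first. Of the 484 genes called higher in adult sham, 422 (87.2%) were also above 0 between the injured libraries, against 42.3% of the 11130 genes not called. Of the 932 genes called lower, 860 (92.3%) were also below 0, against 57.7%. At least 2-fold in the same direction were 173 and 307 genes, and at least 2-fold in the opposite direction 6 and 5. The median ratio between the injured libraries was 0.77 for the genes called higher, whose median between the shams was 1.39, and −0.72 for those called lower, against −1.62. Across all 12546 genes, which are not independent replicates and were processed together, Pearson's r of the 2 ratios was 0.67 and Spearman's rho 0.65.

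The gene groups differed in how much of the age difference was also seen after injury. Cell cycle genes had a median of −1.17 between the injured libraries, close to the −1.27 between the shams, and imprinted genes one of −1.59. For the cartilage collagens the median was −0.57, and for bone genes 0.84. Macrophage genes, with −0.16, and type I interferon genes, with −0.73, were not higher in the adult after injury. Whether these differences between the sham and the injured pair exceed the spread between pools could not be tested with 1 library per group.

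**Figure D5:**
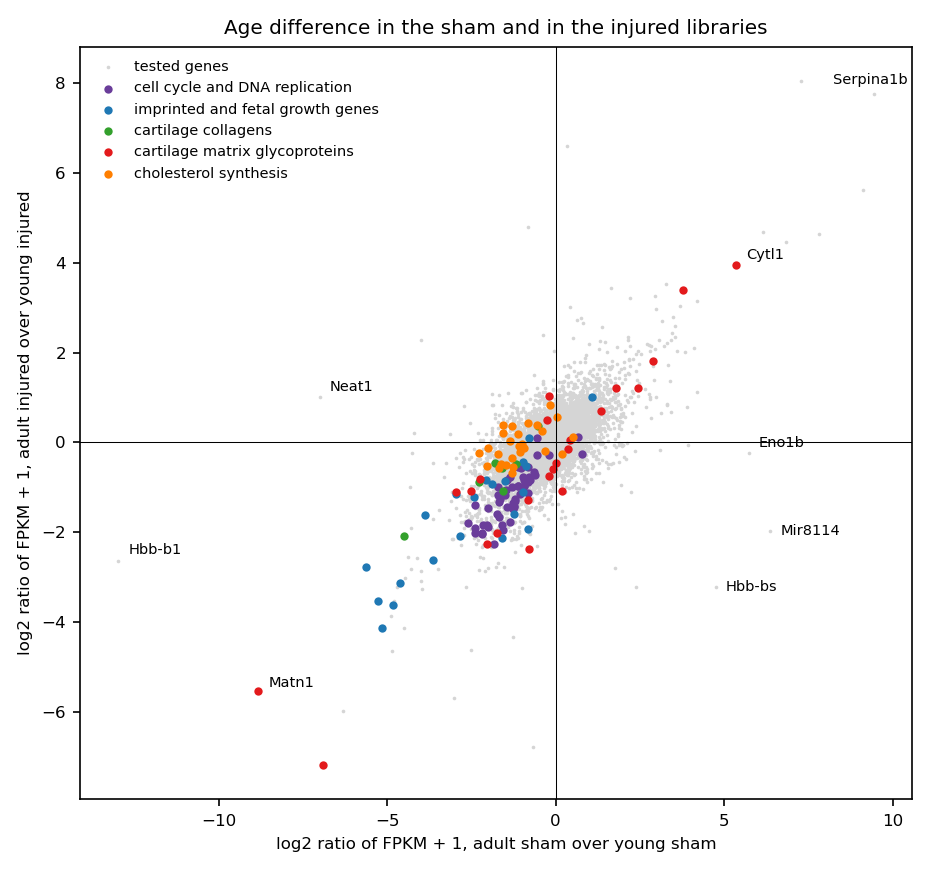
Each point is a tested gene, with the log2 ratio of FPKM + 1 of adult over young sham cartilage on the x axis and of adult over young injured cartilage on the y axis, from 4 libraries of 1 pool each. Cell cycle, imprinted and collagen genes lie mostly at the lower left, cholesterol genes lie nearer to 0 on the y axis, and Neat1, Hbb-bs and Mir8114 lie at the upper left or lower right.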

How the data were processed

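RNA was isolated by the authors from pooled cartilage and sequenced as stranded, poly-A selected paired-end libraries, 1 per group. The deposited values were FPKM per gene, made by the authors from their reads. The submitters' processing notes list HISAT2 2.1.0, HISAT, StringTie 1.3.4d, STAR and SAMtools and the build mm10, without their roles. The read counts and the depth were not analysed here, and the precision is limited by the single pool per group.

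Genes with at least 1 FPKM in either sham library were kept, and log2 ratios of FPKM + 1 were calculated, unscaled and after median-of-ratios scaling over the 4 libraries (genes above 0 in all, 15334). The 4 factors ranged from 0.809 for adult sham to 1.11 for young injured cartilage. A call needed a 2-fold difference in the same direction on both scales. No test was run, because each sham group held 1 library, and a joint fit of age and injury over the 4 libraries was not made. Named were the 20 genes with the largest ratio in each direction among called genes whose mean over the shams reached 10 FPKM, the 10 most abundant genes of each sham library, Ifngr1, Ifngr2 and Ifng, and members of 46 gene lists. The genes, lists and comparisons were chosen with earlier results of these data known, and 7 further lists, the sums of near copies and those of the bone and tendon lists without their leading members were added after their values were seen. Genes sharing at least 50% of their 31-base words with the transcripts of another gene were called near copies (293 of the tested genes). Positions were taken from RefSeq tables of GRCm38.p6, which held 24458 of the 24532 genes. Python 3.11.15, numpy 2.4.6, pandas 2.3.3, scipy 1.17.1 and matplotlib 3.10.9 were used. The calls were run on simulated data with large changes set in advance in abundant genes and with little noise. That run checks the calculation only and does not measure the spread between pools. Alternatives were other pseudocounts, filters, scalings and thresholds, removal of a trend with transcript length and omission of near copies.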

Additional observations from a re-analysis of the deposited data

Results flagged for a closer look

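Of the called genes 11 had an opposite age ratio of at least 2-fold between the injured libraries, 4 of them with a mean of at least 10 FPKM over the shams or in a gene list, and with 1 library per group none of these differences was tested. Hbb-bs had a log2 ratio of 4.75 between the sham libraries and −3.215 between the injured libraries, with 106 FPKM in young sham, 2868 in adult sham, 783 in young injured and 83.4 in adult injured cartilage. Mir8114 had ratios of 6.36 and −1.97. Both share over 50% of their sequence words with other genes, so their single values are uncertain. Neat1 had ratios of −7.01 and 1.007, and its level in adult sham cartilage, 0.828 FPKM, lay far below the 234 to 518 FPKM of the other libraries. Foxa2 had ratios of −1.90 and 1.089.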

How the results depend on the processing

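The unscaled counts of 484 genes higher and 1934 lower depended on the scale and the threshold. They were 1058 and 932 after median-of-ratios scaling over the 4 libraries, 965 and 966 over the sham libraries, 904 and 959 after quantile normalization, 225 and 670 with a pseudocount of 5 FPKM, 1154 and 4387 at 1.5-fold and 183 and 505 at 3-fold. Requiring both scales kept 484 and 932. The counts stayed within 1.5 times under the other 7 alternatives, a pseudocount of 0.1 FPKM, at least 1 FPKM in both shams, all genes above 0, equal sums with and without the most abundant genes, and removal of the length trend or of near copies. Counting all genes above 0 could not change these counts, because a gene below 1 FPKM in both shams cannot reach 2-fold. The share of unscaled calls with the same direction between the injured libraries was 89.99%, and 92.18% with a pseudocount of 5 FPKM. Among 272 genes, those of the lists that were called and those named by size or abundance, none past 2-fold reversed in 2662 alternative values and 105 values fell below 2-fold. These values include filters, at least 1 FPKM in both shams and all genes above 0, which leave the ratio of a gene unchanged and could not reverse it. Genes within 2-fold could change their sign, as did 3110079O15Rik, from −0.19 to 0.25 with scaling. Of 519 alternative list medians, 1 of those past 2-fold reversed, that of the skin list (1.90, and −0.11 with all genes above 0), which had 2 tested members. Medians within 2-fold of 0 changed their sign under at least 1 alternative in the aggrecan, matrix glycoprotein, leucine-rich proteoglycan, protease, glycosaminoglycan, respiratory chain, glycolysis, antioxidant, both interferon, histone, adipocyte, endothelial, neural, liver, keratan sulfate and iron lists. No paired analysis was possible because each sham group held 1 library, which makes a single pair, and leaving out a library would leave a sham group empty. A fit of age with injury as a block over the 4 libraries was not run. With 1 pool a side, the spread between pools, and any difference smaller than it, could not be measured.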

Other observations

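Since the groups in this section were picked with their values in view, their counts are descriptions of 2 pools. Sulfotransferases and carrier genes of keratan sulfate, a sulfated chain of cartilage and cornea, included 2 of the 20 genes with the largest ratios toward the adult. Chst1 was at 0.754 FPKM in the young against 24.0 FPKM in the adult pool (log2 ratio 3.84) and Chst5 at 2.85 FPKM in the young against 49.2 FPKM in the adult pool (log2 ratio 3.70). The list median over 6 tested members was −0.06 without and 0.29 with scaling, so it had no stable sign, and the other members were not called. Of 17 S100 and actin-capping genes 5 were called higher and none lower, against 3.86% and 7.43% of all genes, with a median of 0.71. S100a4, a calcium-binding protein gene of mesenchymal cells, was at 31.3 FPKM in the young against 344 FPKM in the adult pool (log2 ratio 3.42), and the annexin gene Anxa8 at 71.5 FPKM in the young against 508 FPKM in the adult pool (log2 ratio 2.81). Capg, an actin-capping gene, was at 31.5 against 135 FPKM, whereas the capping genes Capza1 and Capza2 had log2 ratios of −1.21 and −1.10 and were not called. Iron handling genes had 3 of 7 called higher and 2 lower, against 3.86% and 7.43% of all genes, and a median whose sign changed with scaling. Fth1, the gene of the ferritin heavy chain that stores iron, was at 928 FPKM in the young against 2819 FPKM in the adult pool (log2 ratio 1.60), and Tfrc, the transferrin receptor gene that takes up iron and is abundant in red cell precursors, at 65.2 FPKM in the young against 11.4 FPKM in the adult pool (log2 ratio −2.41). Mfi2, the melanotransferrin gene of chondrocytes, was at 134 against 711 FPKM.

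Genes of the secretory pathway, which carry matrix proteins from the endoplasmic reticulum to the Golgi, had 10 of 42 members called lower and none higher, with a median of −0.94 (−0.51 after scaling). Sec61b, a gene of the translocation channel, was at 313 FPKM in the young against 96.5 FPKM in the adult pool (log2 ratio −1.69), and Kdelr2, which returns proteins to the endoplasmic reticulum, at 269 against 95.8 FPKM. Of 27 splicing and RNA-binding genes 4 were called lower and none higher, with a median of −0.80. The members called were Srsf3, Srsf10, Srsf11 and Snrpd1, of which Srsf10 was at 45.8 FPKM in the young against 7.90 FPKM in the adult pool (log2 ratio −2.40). The counts compare with 7.43% of all genes called lower.

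Genes of chromosome X lay lower than those of the autosomes. The median log2 ratio of 419 tested X genes was −0.66 (−0.32 after scaling), 74 of them (17.7%) were called lower and 4 higher, against 7.43% and 3.86% of all genes. The autosomes had medians from −0.50 to −0.21 and shares called lower from 4.45% to 14.0%, the highest on chromosome 12. Between the injured libraries the X median was −0.27. No cause of this difference was tested.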
